A study of Saccharomyces cerevisiae with 17 samples.

Results

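This account compares yeast cells depleted of the RNA-degrading enzyme Xrn1 with cells that kept it, after 10 min of salt stress. The libraries were chosen by their labels: the 3 Xrn1-AID libraries and the 3 Xrn1-WT libraries taken at 10 min of NaCl, 6 of the 17 libraries of the series, with all 7126 listed features. The series measured polyadenylated RNA of Saccharomyces cerevisiae strain BY25598 by strand-specific mRNA sequencing with and without auxin, before salt and after 10 and 30 min in it. All groups share 1 genotype: MATa with ADH1-OsTIR1-9Myc and URA3 placed at ura3-1, the alleles his3-11,15, ade2-1, can1-100, trp1-1 and a mutant leu2 allele, and XRN1 fused to an auxin-inducible degron with a HIS marker. Xrn1-AID cells received 500 µM auxin for 30 min before the salt and Xrn1-WT cells received none; both then spent 10 min in 0.4 M NaCl. The submitters state that auxin brought the protein under 10% of its level. No auxin-treated strain without the degron was analysed here, so an effect of auxin itself and the loss of Xrn1 cannot be told apart, and Xrn1-WT cells also carry the tagged protein.

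Xrn1 is the main cytoplasmic exoribonuclease of yeast and degrades mRNA once its cap has been removed. It clears the products of general mRNA turnover and of nonsense-mediated decay (NMD), the pathway that removes transcripts whose reading frame ends too early. High salt activates the kinase Hog1, which for a short time induces genes of glycerol synthesis, stress protection and reserve carbohydrate metabolism while genes for making ribosomes are repressed. The degron lets a plant F-box protein, OsTIR1, mark the tagged enzyme for the proteasome when auxin is present.

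The 10 min libraries held 17040739 to 19849677 counts each, against 13937793 to 30422493 over the whole series. Of the mating-type markers, STE3 and MFA2 held to the label. The alpha-cell receptor gene STE3 stood at 0.425, 0.557 and 0.356 CPM in the Xrn1-WT libraries and 0.519, 0.345 and 0.491 CPM in the Xrn1-AID libraries. The a-factor gene MFA2 stood at 88.6, 77.4 and 52.1 CPM and 133, 126 and 125 CPM. The 2 alpha-specific genes tested, STE3 and SAG1, together held 10.1 to 23.6 CPM per Xrn1-WT library. Per Xrn1-AID library they held 18.5 to 30.9 CPM, so most of this was SAG1. Between the arms, MFA2 was higher in Xrn1-AID (0.82, edgeR adjusted p = 0.0102). The a-specific genes MFA1 (-1.09, edgeR adjusted p = 0.0126) and AGA2 (-0.79, edgeR adjusted p = 0.0255) were lower. CPM here are counts relative to the library total after edgeR's TMM scaling, 3 values in the order of the replicate numbers, and a difference is the fitted log2 of Xrn1-AID over Xrn1-WT with its standard error. XRN1 itself read 46.9, 20.9 and 39.2 CPM in the Xrn1-WT libraries against 48.9, 51.7 and 52.0 CPM in Xrn1-AID (0.51 ± 0.35, edgeR adjusted p = 0.28). Auxin removes the protein and not its mRNA, so this level is no check of the depletion. One library stood apart from its group: 163 genes of Xrn1-WT replicate 2 lay more than 2-fold from the group mean, against 67 and 65 in the other Xrn1-WT libraries and 5 to 49 in the Xrn1-AID libraries. That library also had the lowest TMM factor, 0.591, drew 3.79% of its protein-coding counts from reading frames under 300 bases against 2.97% and 2.89%, and 2.19% from those of 3000 bases or more against 3.98% and 4.08%. For lists with 3 or more calls in a direction, a count that moved by over 1.5 times when this or another single library was left out is given beside the count; smaller counts are of all libraries alone. The labels do not say that libraries came from separate cultures, so p-values measure the spread between these libraries, which may be technical. Counts are shares of a library, so a change in the total mRNA of a cell was not measured.

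At 10 min the 2 arms differed at 1749 of 6195 tested features. In Xrn1-AID 1072 features were higher and 677 lower (edgeR quasi-likelihood test on all 17 libraries, Benjamini-Hochberg adjusted p under 0.05; such features are said to rise or fall below), which is 17.3% and 10.9% of those tested. By more than 2-fold, 276 were higher and 275 lower. The median difference over all tested features was 0.09 on the log2 scale. The libraries of the arms did not overlap at 30% of features with Xrn1-AID higher and at 19.7% with Xrn1-AID lower. Without Xrn1-WT replicate 2 the calls were 751 higher and 423 lower, and 1101 of the 1749 features were called in both fits. The balance depended on scaling: higher features were 61.3% of calls with TMM, 49.6% with DESeq2's size factors, 72.7% by library size alone, where the all-feature median was 0.27, 49.1% when only the 6 libraries entered the fit, and 43.6% after a correction for GC and length. Differences below are therefore to be read against the all-feature median of 0.09, and list counts against 17.3% higher and 10.9% lower. After the GC and length correction 858 of 5774 features were higher and 1111 lower, with a median of -0.007. Counts given after that correction are to be read against these.

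**Figure D1:**
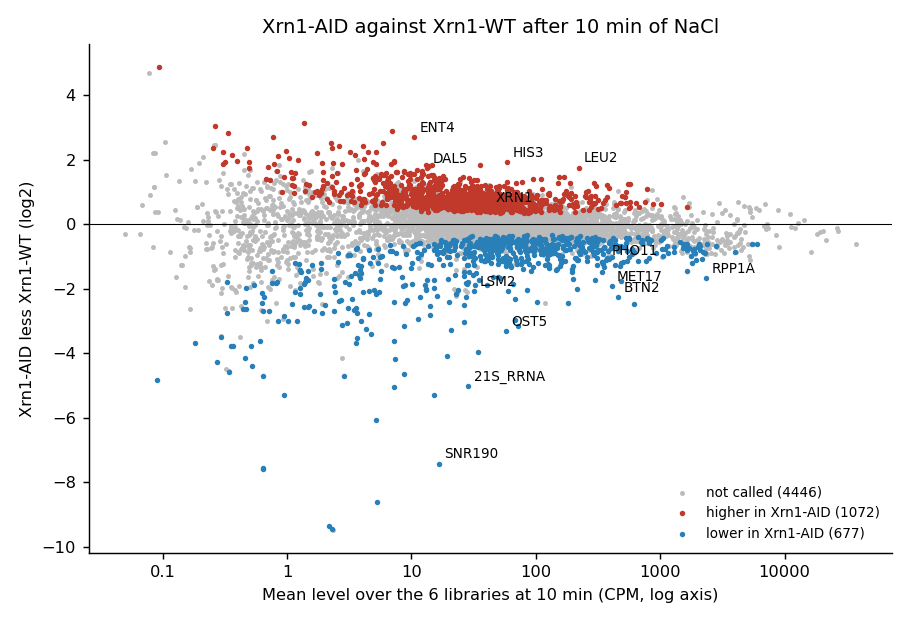
Every tested feature by its mean level over the 6 libraries at 10 min (horizontal, CPM on a log axis) and its fitted difference Xrn1-AID less Xrn1-WT (vertical, log2). Red points are the 1072 features called higher, blue points the 677 called lower and grey points the rest. The deepest differences, among them SNR190 and 21S_RRNA, belong to features low in Xrn1-AID. SNR190 had almost no counts there, so its fitted value depends on the prior count.

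Many of these differences were also present before salt, in other libraries. Of the 1072 features higher at 10 min, 504 were also called higher at 0 min (47% of them, and 50.2% of the 1003 higher at 0 min) and 7 were called lower there. Of the 677 lower at 10 min, 423 were also called lower at 0 min (62.5%, and 41.6% of the 1016 lower at 0 min), while 7 were called higher. At 30 min the shared calls were 351 higher (32.7%, and 49.2% of 713) and 289 lower (42.7%, and 42.5% of 680). In all, 259 features were higher and 236 lower in Xrn1-AID at each of the 3 times.

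The strongest increases with a mean of at least 10 CPM included genes whose alleles in this strain are defective. HIS3 (YOR202W, chrXV:721946-722608), an enzyme of histidine synthesis, stood at 20.5, 32.1 and 20.3 CPM in the Xrn1-WT libraries against 107, 79.3 and 90.9 CPM in Xrn1-AID (1.93 ± 0.22, edgeR adjusted p = 8.67e-05). LEU2 (YCL018W, chrIII:91324-92418), of leucine synthesis, stood at 93.4, 116 and 93.8 CPM in the Xrn1-WT libraries against 368, 334 and 317 CPM in Xrn1-AID (1.75 ± 0.24, edgeR adjusted p = 2.73e-04). ADE2, of purine synthesis, stood at 32.2, 30.0 and 38.7 CPM in the Xrn1-WT libraries against 80.7, 75.3 and 76.3 CPM in Xrn1-AID (1.20 ± 0.13, edgeR adjusted p = 6.95e-05). Coordinates are those of the coding region in sacCer3. In ADE2 the lowest Xrn1-AID library lay above the highest Xrn1-WT library. HIS3 and LEU2 were named by a rule that asks for no overlap. CAN1, the arginine permease, also rose (1.03 ± 0.26, edgeR adjusted p = 0.00869), as did TRP1, of tryptophan synthesis (0.66 ± 0.21, edgeR adjusted p = 0.0265), the latter standing at 17.2, 27.8 and 19.6 CPM in the Xrn1-WT libraries against 36.9, 29.4 and 35.4 CPM in Xrn1-AID. URA3, which the strain carries in working form beside ura3-1, stood at 668, 815 and 709.9 CPM in the Xrn1-WT libraries against 631, 567 and 558 CPM in Xrn1-AID (-0.32 ± 0.16, edgeR adjusted p = 0.137). So 5 of these 6 genotype genes rose, with a median difference of 1.12; this set was put together after the values had been seen. The alleles ade2-1, trp1-1 and can1-100 are known to hold a premature stop codon and his3-11,15 and the common leu2 allele frameshifts. Whether this bears on their rise was not tested. The labels do not say which gene the HIS marker at XRN1 is, so HIS3 counts could include it in both arms. The 5 genes that rose were also called higher at 0 min, and 4 of the 6 at 30 min. The call of TRP1 was lost in 4 of 6 fits that left out 1 library (adjusted p up to 0.101).

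Of 10 tested classic NMD targets 5 rose (50%, against 17.3% of all features), with a median of 0.79. None fell (0 at an unadjusted edgeR p under 0.05, 0 by DESeq2). EST1 (YLR233C, chrXII:607425-609524), a telomerase subunit, stood at 7.57, 5.94 and 8.19 CPM in the Xrn1-WT libraries against 11.5, 15.7 and 15.0 CPM in Xrn1-AID (0.95 ± 0.20, edgeR adjusted p = 0.00346). CPA1, an arginine synthesis enzyme with an upstream reading frame in its leader, stood at 230.0, 172 and 203 CPM in the Xrn1-WT libraries against 289, 282 and 257 CPM in Xrn1-AID (0.45 ± 0.14, edgeR adjusted p = 0.0225), and the telomere protein gene STN1 rose by 0.81 ± 0.28 with overlapping libraries. The NMD factors themselves did not pass the test: of 5 tested members none rose (1 at an unadjusted edgeR p under 0.05, 0 by DESeq2) and none fell (0 at an unadjusted edgeR p under 0.05, 0 by DESeq2), and NMD2 (UPF2) differed by 0.43 ± 0.17, edgeR adjusted p = 0.0725. Leaving out 1 library of the 6 ended the calls of CPA1 (without AID 1, AID 2 or WT 2, 0.0743) and STN1 (in 4 of 6 leave-outs, 0.146); the number is the highest adjusted p, and AID and WT with a number name the library left out. In the same way the count of NMD targets that rose was 3 without AID 1, AID 2 or WT 2. A correction for GC and length also ended the call of CPA1 (0.19, edgeR adjusted p = 0.254). With that correction 2 of the 5 NMD factors were higher, with a median of 0.28, among them NMD2 (0.51, edgeR adjusted p = 0.0128).

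Among the other features with the strongest increases, POP3, a subunit of RNase P and RNase MRP, stood at 9.84, 3.06 and 6.05 CPM in the Xrn1-WT libraries against 25.9, 21.3 and 21.5 CPM in Xrn1-AID (1.85 ± 0.37, edgeR adjusted p = 0.00273). ENT4, an epsin-like protein of endocytosis and trafficking, rose by 2.70 ± 0.58, the U2 snRNP protein gene MSL1 by 1.70 ± 0.24 and the DNA repair phosphodiesterase gene TDP1 by 1.67 ± 0.17. NIT1, a nitrilase, and the uncharacterized YIR042C rose by 1.82 ± 0.21 and 1.84 ± 0.25. The rule that named these 6 genes asks for no overlap between the arms, so their lack of overlap is no further result. Each was also higher at 0 and 30 min by 0.89 or more.

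**Figure D2:**
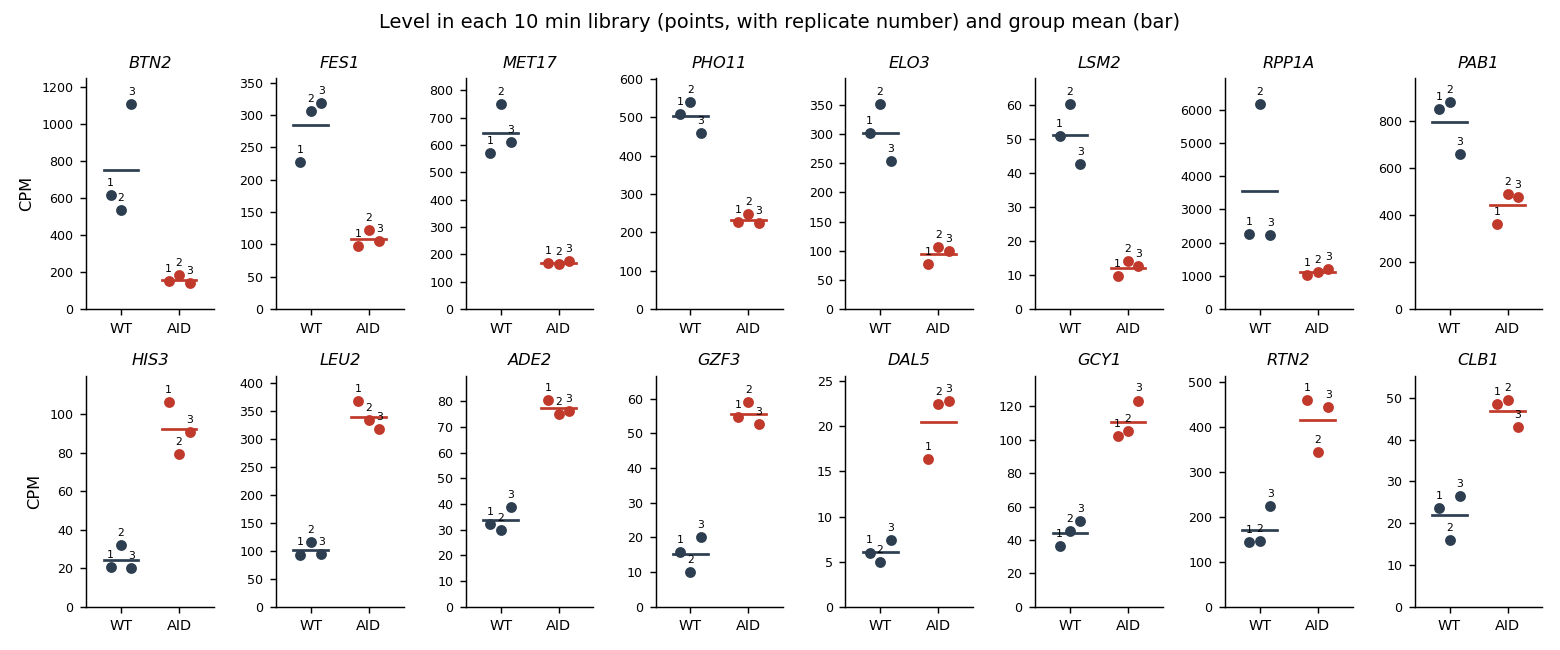
Level of 16 genes in each 10 min library (vertical, CPM from 0; points numbered by replicate, horizontal bars the group mean of 3 libraries), Xrn1-WT in dark grey and Xrn1-AID in red. The upper row holds genes lower in Xrn1-AID and the lower row genes that were higher; RPP1A shows how far Xrn1-WT replicate 2 stood from the other libraries of its group.

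Genes of nitrogen catabolite repression serve the use of poor nitrogen sources and are switched by GATA factors. In Xrn1-AID 9 of 23 tested members rose (39.1%, against 17.3% of all features), with a median of 0.47. None fell (0 at an unadjusted edgeR p under 0.05, 0 by DESeq2). GZF3, itself a GATA repressor, stood at 15.8, 9.94 and 20.1 CPM in the Xrn1-WT libraries against 54.7, 59.2 and 52.8 CPM in Xrn1-AID (1.85 ± 0.21, edgeR adjusted p = 8.67e-05). DAL5, the allantoate permease, stood at 6.02, 4.92 and 7.40 CPM in the Xrn1-WT libraries against 16.3, 22.4 and 22.8 CPM in Xrn1-AID (1.74 ± 0.21, edgeR adjusted p = 1.25e-04). Both genes were named by the rule that asks for no overlap, so their lack of overlap is no further result. DAL7, a malate synthase, rose by 1.16 ± 0.18 and DAL2, the allantoicase, by 0.97 ± 0.24. At 0 and at 30 min 12 of the 23 were higher as well, with medians of 0.58 and 0.54. After the correction for GC and length 5 were higher at 10 min, with a median of 0.10. The sequence GATAAG, bound by GATA factors, occurred on either strand within the 300 bases before the coding start of 14 of the 23 genes (60.9%), against 14.7% of all 5714 protein-coding genes tested, and in 6 of the 9 that rose. Over all protein-coding genes called higher its share was 15.3%. The gene lists were drawn up from textbook knowledge of such pathways. A higher share of sites in a list than in all genes therefore says nothing of the 10 min difference. The windows of DAL5 (chrX:719366-719665, plus strand) and GZF3 (chrX:211578-211877, minus strand) are shown because these were the members with the largest increases; they were read from the sacCer3 (R64) sequence of RefSeq, run toward the coding start, and have each GATAAG or its reverse complement in capitals.

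DAL5: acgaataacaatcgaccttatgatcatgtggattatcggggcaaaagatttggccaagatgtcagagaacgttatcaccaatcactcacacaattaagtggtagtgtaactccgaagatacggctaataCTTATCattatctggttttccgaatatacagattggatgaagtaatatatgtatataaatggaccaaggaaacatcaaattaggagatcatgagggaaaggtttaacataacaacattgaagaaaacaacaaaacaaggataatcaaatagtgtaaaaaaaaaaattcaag

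GZF3: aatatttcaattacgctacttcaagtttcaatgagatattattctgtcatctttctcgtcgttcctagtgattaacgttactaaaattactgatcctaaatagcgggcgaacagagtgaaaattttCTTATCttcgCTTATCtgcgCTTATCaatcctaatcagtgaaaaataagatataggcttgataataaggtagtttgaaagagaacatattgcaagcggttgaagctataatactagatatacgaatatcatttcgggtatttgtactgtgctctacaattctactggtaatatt

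Genes that salt induces through Hog1 were called higher in Xrn1-AID at 10 min in a share (22.2%) near that of all features (17.3%). Of the osmostress effectors 6 of 27 tested members rose and none fell (0 at an unadjusted edgeR p under 0.05, 0 by DESeq2), with a median of 0.39 against 0.04 at 0 min and -0.38 at 30 min. GCY1 (YOR120W, chrXV:551114-552052), a glycerol dehydrogenase, stood at 36.2, 45.2 and 51.1 CPM in the Xrn1-WT libraries against 102, 105 and 124 CPM in Xrn1-AID (1.32 ± 0.15, edgeR adjusted p = 8.67e-05). RTN2, a reticulon-like membrane protein, stood at 144, 146 and 224 CPM in the Xrn1-WT libraries against 459.7, 345 and 445 CPM in Xrn1-AID (1.28 ± 0.31, edgeR adjusted p = 0.00755). Both genes had non-overlapping arms. MSC1 rose by 1.09 ± 0.28 and CIN5, a bZIP regulator of salt tolerance, by 0.89 ± 0.31, whose arm difference was 0.04 ± 0.32 at 0 min and -1.67 ± 0.37 at 30 min. At 30 min 7 of the 27 were lower in Xrn1-AID. After the correction for GC and length 3 of the 27 were higher at 10 min, with a median of 0.10, and the call of CIN5 (0.74, edgeR adjusted p = 0.0539) was lost.

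The general stress genes, targets of Msn2 and Msn4, were higher in part. Of 33 tested members 10 rose (30.3%, against 17.3% of all features), with a median of 0.45. None fell (1 at an unadjusted edgeR p under 0.05, 1 by DESeq2). Without 1 library the count that rose was 5 without AID 1 or WT 1 and 6 without AID 3, and after the correction for GC and length it was 6. TKL2, a transketolase isoform, stood at 304, 291 and 387 CPM in the Xrn1-WT libraries against 878, 667 and 779 CPM in Xrn1-AID (1.24 ± 0.40, edgeR adjusted p = 0.0288), the protease gene YPS6 rose by 1.04 ± 0.16 and the repressor gene XBP1 by 1.02 ± 0.31. Of the reserve carbohydrate genes 4 of 18 tested members rose and none fell (0 at an unadjusted edgeR p under 0.05, 1 by DESeq2), with a median of 0.55. That share, 22.2%, was near the background, and in the leave-outs of 1 library the count that rose was 13 without WT 3. After the correction for GC and length 3 of the 18 were higher and 1 lower, with a median of 0.23. PGM2, phosphoglucomutase, stood at 188, 339.7 and 483 CPM in the Xrn1-WT libraries against 805, 724 and 898 CPM in Xrn1-AID (1.26 ± 0.27, edgeR adjusted p = 0.0034), and Xrn1-AID lay above every Xrn1-WT library. The glycogen synthase gene GSY2 rose by 1.27 ± 0.26, the glycogen phosphorylase gene GPH1 by 0.91 ± 0.28 and the acid trehalase gene ATH1 by 0.89 ± 0.18. Among HOG signalling genes 5 of 28 rose, 17.9% against 17.3% of all features, and 1 fell, with a median of 0.08. The transcription factor genes HOT1 (0.91 ± 0.20) and MSN1 (0.91 ± 0.22) and the adaptor gene STE50 (0.58 ± 0.14) were higher. YPD1, the phosphorelay protein that restrains the pathway, was lower (-0.98 ± 0.23, edgeR adjusted p = 0.00632). The stress response element AGGGG lay within 300 bases of the start in 78.8% of the 33 general stress genes and 22.8% of all genes. Its share was 24.2% over all protein-coding genes called higher. Among genes for weak acid resistance 4 of 10 tested members rose (40%, against 17.3% of all features), led by YRO2 (1.28 ± 0.27, edgeR adjusted p = 0.00351). None fell (0 at an unadjusted edgeR p under 0.05, 0 by DESeq2). With 1 library left out, the count that rose was 1 without AID 3 and 2 without AID 1 or WT 2. The leave-outs of 1 library ended the calls of CIN5 (in 5 of 6 leave-outs, 0.131), TKL2 (in 4 of 6 leave-outs, 0.0873), XBP1 (in 4 of 6 leave-outs, 0.0862) and GPH1 (in 4 of 6 leave-outs, 0.0928). The correction for GC and length ended those of TKL2 (0.85, edgeR adjusted p = 0.0836) and XBP1 (0.62, edgeR adjusted p = 0.0746). It also ended those of GPH1 (0.57, edgeR adjusted p = 0.139) and STE50 (0.33, edgeR adjusted p = 0.0704) and moved HOT1 to 0.58. Of the 28 HOG signalling genes 3 were then higher and 6 lower, against 858 and 1111 of all 5774 features.

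Genes of the cytosolic chaperone system, most of them targets of the heat shock factor Hsf1, went the other way: of 27 tested members none rose (0 at an unadjusted edgeR p under 0.05, 0 by DESeq2) and 7 fell, with a median of -0.30. BTN2 (YGR142W, chrVII:772454-773686), which gathers misfolded proteins into deposits, stood at 615, 539 and 1107 CPM in the Xrn1-WT libraries against 149.5, 183 and 139 CPM in Xrn1-AID (-2.26 ± 0.29, edgeR adjusted p = 1.42e-04). Every Xrn1-AID library was below every Xrn1-WT library. FES1, a nucleotide exchange factor of Hsp70, stood at 227, 306 and 319 CPM in the Xrn1-WT libraries against 97.2, 123 and 106 CPM in Xrn1-AID (-1.39 ± 0.17, edgeR adjusted p = 1.26e-04). CUR1, a paralog of BTN2, stood at 149, 158 and 194 CPM in the Xrn1-WT libraries against 53.4, 81.2 and 73.8 CPM in Xrn1-AID (-1.27 ± 0.22, edgeR adjusted p = 0.001), and the Hsp40 gene APJ1 fell by 1.09 ± 0.16. These 4 genes had non-overlapping arms and kept their calls when any 1 library was left out. The Hsp70 gene SSA4 stood at 291, 291 and 524 CPM in the Xrn1-WT libraries against 218, 207 and 186 CPM in Xrn1-AID (-0.86 ± 0.22, edgeR adjusted p = 0.0109), also without overlap; its difference was 1.06 ± 0.23 at 0 min and -1.65 ± 0.26 at 30 min. When 1 library was left out, the call of SSA4 (without WT 3, 0.0554) was lost. At 0 min 4 of the 27 were higher and 2 lower in Xrn1-AID, with a median of 0.16. After the correction for GC and length 17 of 27 were lower at 10 min, against 1111 of all 5774 features. The heat shock element GAANNTTC lay in the 300 bases before 13 of the 27 genes (48.1%), against 11.7% of all genes, and in 3 of the 7 that fell. Its share was 13.2% over all protein-coding genes called lower. FES1 (chrII:444694-444993, minus strand) and CUR1 (chrXVI:842962-843261, plus strand) are the called members with the largest falls that hold it, shown with the element in capitals.

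FES1: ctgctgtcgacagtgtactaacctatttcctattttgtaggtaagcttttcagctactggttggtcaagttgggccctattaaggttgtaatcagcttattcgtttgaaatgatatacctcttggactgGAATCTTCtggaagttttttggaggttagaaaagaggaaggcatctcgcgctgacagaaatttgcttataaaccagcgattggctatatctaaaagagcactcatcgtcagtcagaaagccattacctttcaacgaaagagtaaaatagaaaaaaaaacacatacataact

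CUR1: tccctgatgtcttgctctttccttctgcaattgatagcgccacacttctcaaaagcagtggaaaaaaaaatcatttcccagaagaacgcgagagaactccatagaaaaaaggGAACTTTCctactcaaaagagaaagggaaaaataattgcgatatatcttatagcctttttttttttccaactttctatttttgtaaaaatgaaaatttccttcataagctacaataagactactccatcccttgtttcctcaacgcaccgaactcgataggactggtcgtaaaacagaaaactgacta

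BTN2 and APJ1 did not hold these letters in the window. Genes of the unfolded protein response in the endoplasmic reticulum were mixed, with 3 of 16 higher and 5 lower: the Hsp40 genes JEM1 (0.77 ± 0.22) and SCJ1 (0.63 ± 0.15) were higher, and the protein disulfide isomerase gene EUG1 (-1.03 ± 0.26) and the prolyl isomerase gene FPR2 (-0.69 ± 0.18) lower. Of the cell wall integrity genes 1 of 22 rose (4.55%) and 2 fell (9.09%), against 17.3% and 10.9% of all features. Among those that fell, FKS1, a glucan synthase, stood at 681, 476 and 625 CPM in the Xrn1-WT libraries against 326, 359 and 397 CPM in Xrn1-AID (-0.72 ± 0.18, edgeR adjusted p = 0.00937). Single-library leave-outs ended the calls of JEM1 (without AID 1 or WT 2, 0.068) and FPR2 (without WT 2, 0.0741). The count of unfolded protein response genes that fell was 2 without AID 1 or WT 2 and 3 without WT 3. The correction for GC and length moved SCJ1 to 0.35.

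The phosphate regulon was lower in Xrn1-AID: 1 of 18 tested members rose and 8 fell, with a median of -0.33, the largest share of falls among the lists shown in the plot of gene lists. PHO89, a sodium-dependent phosphate transporter, stood at 109, 94.0 and 137 CPM in the Xrn1-WT libraries against 46.7, 31.0 and 51.8 CPM in Xrn1-AID (-1.39 ± 0.30, edgeR adjusted p = 0.00392). PHO11 (YAR071W, chrI:225460-226863), a secreted acid phosphatase, stood at 509.8, 541 and 459 CPM in the Xrn1-WT libraries against 227, 247 and 225 CPM in Xrn1-AID (-1.11 ± 0.13, edgeR adjusted p = 1.09e-04), and its near-identical copy PHO12, with which reads may have been split, fell by 1.21 ± 0.16. VTC1, of the polyphosphate polymerase complex, stood at 379, 706 and 324 CPM in the Xrn1-WT libraries against 242, 194 and 195 CPM in Xrn1-AID (-1.16 ± 0.27, edgeR adjusted p = 0.00619). No arms overlapped in these genes. The count of falls was also 8 without Xrn1-WT replicate 2, where VTC1 was at -0.71 ± 0.23, edgeR adjusted p = 0.0403, and at 0 min 9 of 18 were lower. The letters CACGTG, bound by Pho4, lay in the 300 bases before 8 of the 18 genes (44.4%) against 3.61% of all genes, and in 5 of the 8 that fell. Their share was 3.70% over all protein-coding genes called lower. PHO5, the repressible acid phosphatase on chrII:430952-431251, minus strand, and VTC1 (chrV:302506-302805, plus strand) are shown as falling members that hold the letters, in capitals.

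PHO5: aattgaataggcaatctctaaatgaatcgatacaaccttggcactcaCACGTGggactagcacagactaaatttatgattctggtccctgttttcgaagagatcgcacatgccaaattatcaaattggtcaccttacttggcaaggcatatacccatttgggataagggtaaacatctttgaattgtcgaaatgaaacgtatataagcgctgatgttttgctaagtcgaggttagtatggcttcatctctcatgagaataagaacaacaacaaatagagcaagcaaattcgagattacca

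VTC1: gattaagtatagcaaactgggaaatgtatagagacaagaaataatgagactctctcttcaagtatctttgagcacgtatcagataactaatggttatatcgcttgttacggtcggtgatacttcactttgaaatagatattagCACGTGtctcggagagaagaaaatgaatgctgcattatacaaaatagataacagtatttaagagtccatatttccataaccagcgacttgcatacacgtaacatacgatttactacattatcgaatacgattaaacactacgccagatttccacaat

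In sulfur metabolism 1 of 23 tested members rose and 5 fell. MET17 (YLR303W, chrXII:732542-733876), the enzyme that fixes sulfide into homocysteine, stood at 571, 751 and 609 CPM in the Xrn1-WT libraries against 168, 164 and 176 CPM in Xrn1-AID (-1.93 ± 0.18, edgeR adjusted p = 4.66e-05), the smallest adjusted p among the genes named here. A feature on the other strand overlaps MET17, and whether the counting used strand is not given in the sources used here. MET6, methionine synthase, stood at 483, 390.4 and 441 CPM in the Xrn1-WT libraries against 201, 173 and 174 CPM in Xrn1-AID (-1.27 ± 0.19, edgeR adjusted p = 3.67e-04). In both genes Xrn1-AID lay far below every Xrn1-WT library. The S-methylmethionine permease gene MMP1 fell by 1.12 ± 0.24 and the siroheme synthesis gene MET1 rose by 0.84 ± 0.16. Amino acid synthesis outside sulfur had 9 of 60 higher (15%) and 8 lower (13.3%), near the shares over all features, 17.3% and 10.9%. The count that rose was 4 without WT 3 and 5 without AID 1, and the count that fell 3 without AID 1 or WT 2 and 5 without AID 3. HIS3 and LEU2 led the increases, while ARG3, of arginine synthesis, and HOM6, of the threonine and methionine branch, fell by 1.23 ± 0.23 and 1.01 ± 0.27. In purine synthesis ADE2 rose, and GUA1, which makes GMP, fell with 2 others (-0.91 ± 0.14, edgeR adjusted p = 3.82e-04). The count of purine genes that fell was 1 without AID 1 or WT 2. Iron genes had 5 of 25 higher (20%) and 3 lower (12%), also near the shares over all features. The iron reductase genes FRE3 (1.46 ± 0.16) and FRE6 (1.05 ± 0.15) were higher, and the cell wall mannoprotein gene FIT2 (-1.87 ± 0.34) and the copper chaperone gene ATX1 (-1.81 ± 0.38) lower. With GC and length corrected, MET1 was at 0.51 and ATX1 at -0.998. Of the amino acid genes 4 were then higher and 21 lower, of the iron genes 3 and 8, and 11 sulfur and 9 purine genes were lower. Over all 5774 features in that fit 858 were higher and 1111 lower.

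**Figure D3:**
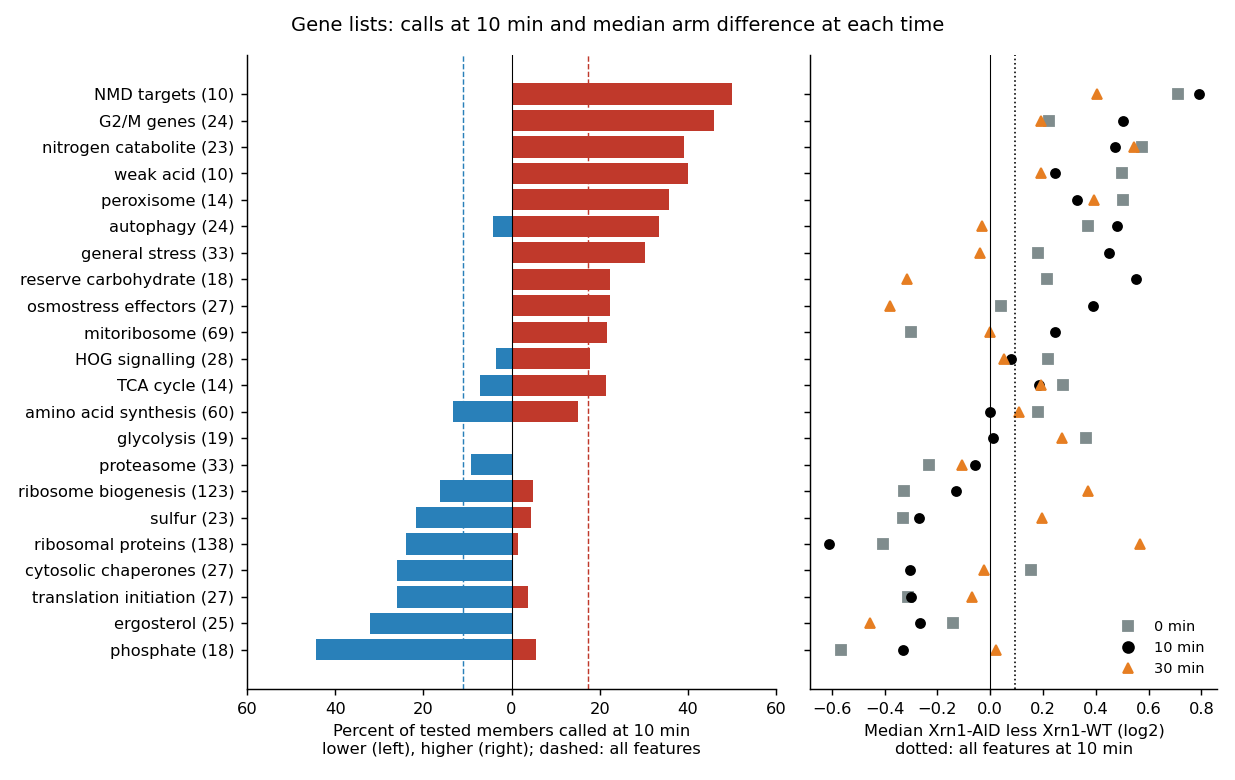
Left, share of tested members of 22 gene lists (number tested in parentheses) called lower (blue) or higher (red) in Xrn1-AID at 10 min, with dashed lines at the shares over all features, 10.9% and 17.3%. Right, median difference Xrn1-AID less Xrn1-WT (log2) of each list at 0, 10 and 30 min; the ribosomal protein genes changed sign from -0.61 at 10 min to 0.57 at 30 min.

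Genes of sterol synthesis fell where they changed. Among the ergosterol genes, of 25 tested members none rose (0 at an unadjusted edgeR p under 0.05, 0 by DESeq2) and 8 fell, with a median of -0.26. When 1 library was left out, the count that fell was 3 without AID 1 or WT 2, 4 without AID 2 and 5 without AID 3. IDI1, which isomerizes the isoprenoid unit, stood at 258, 315 and 297 CPM in the Xrn1-WT libraries against 108, 155 and 142 CPM in Xrn1-AID (-1.11 ± 0.14, edgeR adjusted p = 1.71e-04), and MVD1 (-0.86 ± 0.15) and ERG13 (-0.83 ± 0.20) of the mevalonate route and ERG28 (-0.94 ± 0.31) fell as well. Elongation and phospholipid genes had 4 of 16 higher and 5 lower. ELO3 (YLR372W, chrXII:867354-868391), which lengthens very long fatty acids, stood at 301, 352 and 254 CPM in the Xrn1-WT libraries against 76.5, 107 and 98.9 CPM in Xrn1-AID (-1.68 ± 0.27, edgeR adjusted p = 5.63e-04), its paralog ELO2 fell by 1.21 ± 0.24 and the methyltransferase gene CHO2 by 1.30 ± 0.20. INO2, an activator of phospholipid genes, was higher (1.55 ± 0.39, edgeR adjusted p = 0.0096). After the correction for GC and length 19 of 25 ergosterol genes were lower, against 1111 of all 5774 features. Of 14 tested peroxisomal genes 5 rose (35.7%, against 17.3% of all features) and none fell (0 at an unadjusted edgeR p under 0.05, 0 by DESeq2). PXA2, a fatty acid transporter subunit, stood at 8.71, 8.26 and 11.1 CPM in the Xrn1-WT libraries against 25.0, 27.4 and 26.7 CPM in Xrn1-AID (1.49 ± 0.16, edgeR adjusted p = 8.67e-05). The oxidation enzyme gene FOX2 rose too (0.83 ± 0.18). Without 1 library the count that rose was 3 without AID 1, AID 3 or WT 2. With GC and length corrected, 2 were higher and 2 lower, and the call of FOX2 (0.46, edgeR adjusted p = 0.14) was lost; of the elongation and phospholipid genes 2 were then higher and 8 lower. Of the autophagy genes 8 of 24 rose and 1 fell. In the leave-outs of 1 library the count that rose was 4 without AID 1, AID 2 or WT 1 and 5 without AID 3. ATG8, which coats the autophagosome, rose by 1.02 ± 0.28 and ATG19, a cargo receptor, by 0.99 ± 0.22; ATG41 stood at 40.9, 57.7 and 28.5 CPM in the Xrn1-WT libraries against 14.6, 16.2 and 15.1 CPM in Xrn1-AID and fell (-1.47 ± 0.26, edgeR adjusted p = 0.00119). Leaving out 1 library ended the calls of ERG28 (in 5 of 6 leave-outs, 0.131) and ATG8 (without AID 1 or WT 1, 0.0575).

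Ribosomal protein genes were lower in Xrn1-AID at 10 min, and most of these calls were lost without Xrn1-WT replicate 2. With all libraries 2 of 138 tested members rose and 33 fell, with a median of -0.61; without that replicate 4 rose and 3 fell, with a median of -0.23. Over the leave-outs the count that fell was 3 without WT 2, 7 without AID 1, 13 without AID 3, 16 without AID 2 and 50 without WT 3. RPP1A (YDL081C, chrIV:309802-310122), of the ribosomal stalk, stood at 2259, 6165 and 2226 CPM in the Xrn1-WT libraries against 1023, 1113 and 1206 CPM in Xrn1-AID (-1.67 ± 0.42, edgeR adjusted p = 0.00969). RPS27B stood at 1659, 3984 and 1620.1 CPM in the Xrn1-WT libraries against 927, 836 and 882 CPM in Xrn1-AID. For both, the other Xrn1-WT libraries lay close together and above Xrn1-AID. The values without replicate 2 were -0.98 ± 0.36, edgeR adjusted p = 0.0702 for RPP1A, and -0.87 ± 0.37, edgeR adjusted p = 0.11 for RPS27B. RPL15B was higher in Xrn1-AID, at 159, 209 and 188 CPM in the Xrn1-WT libraries against 508, 363 and 398 CPM in Xrn1-AID (1.19 ± 0.18, edgeR adjusted p = 4.84e-04). Many of these genes are near-identical pairs, whose reads may have been split. At 30 min 30 of the 138 were higher, with a median of 0.57. Ribosome biogenesis genes had 6 of 123 higher and 20 lower. The count that rose was 2 without WT 2, 3 without AID 1, AID 2, AID 3 or WT 3 and 10 without WT 1, and the count that fell 13 without WT 1; their median was -0.13, or 0.05 when scaled by library size alone. The box C/D snoRNP gene NOP56 (-1.16 ± 0.27) and UTP20 (-1.10 ± 0.22) were lower and MAK16 (1.05 ± 0.23) higher. Translation initiation genes had 1 of 27 higher (3.70%) and 7 lower (25.9%), against 17.3% and 10.9% of all features. With 1 library left out, the count that fell was 2 without WT 2 and 4 without AID 1 or AID 3. SUI2, the alpha subunit of eIF2, stood at 209, 230.0 and 209 CPM in the Xrn1-WT libraries against 80.4, 125 and 119.6 CPM in Xrn1-AID, a ratio of 2.00 between the means (edgeR adjusted p = 0.0031); the cap-complex helicase genes went apart, TIF1 lower (-0.60 ± 0.20) and DED1 higher, at 99.9, 69.9 and 77.6 CPM in the Xrn1-WT libraries against 284, 199.9 and 197 CPM in Xrn1-AID (1.46 ± 0.44, edgeR adjusted p = 0.0232). PAB1, the poly(A) binding protein, stood at 850.0, 882 and 659 CPM in the Xrn1-WT libraries against 362, 490.3 and 479 CPM in Xrn1-AID (-0.85 ± 0.18, edgeR adjusted p = 0.00422), without overlap. Once GC and length were corrected, 94 ribosomal protein, 35 ribosome biogenesis and 17 initiation genes were lower, against 1111 of all 5774 features. UTP20 was then at -0.69 and the call of DED1 (1.07, edgeR adjusted p = 0.0566) was lost. The leave-outs of 1 library ended the calls of RPP1A (without WT 2, 0.0702), RPS27B (without WT 2, 0.11), TIF1 (in 5 of 6 leave-outs, 0.154) and DED1 (without AID 1, WT 2 or WT 3, 0.0842).

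Mitochondrial ribosomal protein genes were called higher in a share near the background, 21.7% against 17.3% of all features: 15 of 69 tested members rose and none fell (2 at an unadjusted edgeR p under 0.05, 2 by DESeq2), with a median of 0.25 against -0.30 at 0 min, where 17 were lower. When 1 library was left out, the count that rose was 2 without AID 1 and 4 without WT 1. MRP20 stood at 53.3, 55.0 and 53.3 CPM in the Xrn1-WT libraries against 115, 73.1 and 82.7 CPM in Xrn1-AID (0.74 ± 0.17, edgeR adjusted p = 0.00478), and MRPL44 rose by 0.83 ± 0.18. Nuclear genes of oxidative phosphorylation had 2 of 37 higher (5.41%) and 4 lower (10.8%), against 17.3% and 10.9% of all features. The ATP synthase subunit gene ATP20 fell by 1.58 ± 0.38 and COX7, of cytochrome oxidase, by 1.20 ± 0.33, and the NADH dehydrogenase gene NDI1 rose by 1.27 ± 0.33. In the citrate cycle list CIT2, the peroxisomal citrate synthase that mitochondrial dysfunction induces, stood at 136, 111 and 150.4 CPM in the Xrn1-WT libraries against 245, 248 and 226 CPM in Xrn1-AID (0.85 ± 0.17, edgeR adjusted p = 0.00236). Glycolysis showed no call: of 19 tested members none rose (1 at an unadjusted edgeR p under 0.05, 0 by DESeq2) and none fell (0 at an unadjusted edgeR p under 0.05, 0 by DESeq2), and TDH3, with the highest level of the list in CPM, stood at 36664, 65566 and 33019 CPM in the Xrn1-WT libraries against 31283, 28162 and 29779 CPM in Xrn1-AID. In the pentose phosphate pathway TAL1, transaldolase, fell by 0.78 ± 0.17. HXT2, a glucose transporter, stood at 372, 528 and 466 CPM in the Xrn1-WT libraries against 104, 118 and 194 CPM in Xrn1-AID (-1.72 ± 0.39, edgeR adjusted p = 0.00537), HXT3 (-0.73 ± 0.22) and the repressor gene MIG2 (-1.20 ± 0.20) were lower, and the glucose sensor gene RGT2 (1.07 ± 0.29) was higher. Among the proteasome genes, of 33 tested members none rose (2 at an unadjusted edgeR p under 0.05, 0 by DESeq2) and 3 fell (9.09%, against 10.9% of all features). RPN9 stood at 166, 184 and 183 CPM in the Xrn1-WT libraries against 105, 97.8 and 86.8 CPM in Xrn1-AID (-0.88 ± 0.14, edgeR adjusted p = 4.73e-04). Leaving out 1 library ended the calls of COX7 (without AID 1, 0.0656), NDI1 (without AID 1, 0.0554), HXT3 (in 4 of 6 leave-outs, 0.0949) and RGT2 (without WT 2, 0.0514). The count of oxidative phosphorylation genes that fell was 7 without WT 1. Once GC and length were corrected, 10 oxidative phosphorylation and 8 proteasome genes were lower, against 1111 of all 5774 features. The call of RPN9 (-0.40, edgeR adjusted p = 0.0612) was lost, and MRP20, ATP20 and RGT2 were at 0.47, -1.05 and 0.71. Of the glycolysis genes 0 were then higher and 3 lower, with a median of -0.30, among them TDH3 (-0.84, edgeR adjusted p = 0.0315). By library size alone 1 glycolysis gene was higher.

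Among the genes of mRNA decay itself, 3 of the Lsm ring and 1 of the decapping enzyme fell. In the list of decapping and decay from the capped end 1 of 22 tested members rose and 4 fell. LSM2 (YBL026W, chrII:170623-171038) stood at 50.9, 60.3 and 42.6 CPM in the Xrn1-WT libraries against 9.86, 14.2 and 12.6 CPM in Xrn1-AID (-2.07 ± 0.33, edgeR adjusted p = 6.07e-04), with no overlap. The ring members LSM7 (-0.93 ± 0.24) and LSM4 (-0.89 ± 0.23) and DCP1, the activating subunit of the decapping enzyme, at 36.8, 42.5 and 38.9 CPM in the Xrn1-WT libraries against 22.8, 26.8 and 23.9 CPM in Xrn1-AID (-0.68 ± 0.14, edgeR adjusted p = 0.00244), fell too. LSM2 and DCP1 were lower at 0 min as well (-2.20 ± 0.33 and -1.33 ± 0.14). Deadenylation genes had 2 of 13 higher (15.4%) and 2 lower (15.4%), against 17.3% and 10.9% of all features. Exosome genes, which degrade RNA from the other end, had 1 of 22 higher, the TRAMP subunit gene AIR1 (0.91 ± 0.15, edgeR adjusted p = 6.38e-04), and none fell (2 at an unadjusted edgeR p under 0.05, 2 by DESeq2). The calls of LSM7 (without AID 1 or WT 2, 0.0658) and LSM4 (without AID 1, 0.0506) were lost when 1 library was left out. The count of decapping and decay genes that fell was 2 without AID 1. The correction for GC and length ended the call of LSM4 (-0.49, edgeR adjusted p = 0.0653) and moved LSM7 to -0.55 and DCP1 to -0.37.

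Of 24 tested genes expressed around mitosis 11 rose (45.8%, against 17.3% of all features), with a median of 0.50. None fell (2 at an unadjusted edgeR p under 0.05, 2 by DESeq2). Without 1 library the count that rose was 7 without AID 2 or WT 2; after the correction for GC and length 7 were higher and 3 lower. CLB1, a mitotic cyclin, stood at 23.6, 16.0 and 26.4 CPM in the Xrn1-WT libraries against 48.5, 49.4 and 43.0 CPM in Xrn1-AID (1.09 ± 0.28, edgeR adjusted p = 0.00975). CLB3 rose by 0.91 ± 0.20, the G1 arrest gene FAR1 by 1.06 ± 0.25 and DSE4, a glucanase of cell separation, by 0.90 ± 0.18. These 4 genes had no overlap and kept their calls without any 1 library. In bulk RNA, more cells in a phase and more RNA per cell cannot be told apart. Genes of the G1 to S transition had 2 of 25 higher (8%) and 3 lower (12%), against 17.3% and 10.9% of all features. POL30, the sliding clamp of replication, was among the lower (-0.83 ± 0.19, edgeR adjusted p = 0.00491). No histone gene was called: of 8 tested members none rose (1 at an unadjusted edgeR p under 0.05, 0 by DESeq2) and none fell (0 at an unadjusted edgeR p under 0.05, 0 by DESeq2). After the correction for GC and length 2 histone genes were higher and 1 lower. In the pheromone pathway the kinase gene KSS1 stood at 23.7, 16.5 and 21.1 CPM in the Xrn1-WT libraries against 53.3, 42.4 and 44.6 CPM in Xrn1-AID (1.19 ± 0.18, edgeR adjusted p = 3.79e-04).

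The largest falls were in features that a poly(A) library reads poorly, or that are very short. Among the snoRNAs, of 59 tested members none rose (0 at an unadjusted edgeR p under 0.05, 0 by DESeq2) and 28 fell. In the leave-outs of 1 library the count was 10 without WT 2, 12 without AID 1 and 15 without AID 2 or AID 3. SNR17A, the U3 snoRNA, stood at 16.8, 74.8 and 16.9 CPM in the Xrn1-WT libraries against 1.75, 2.24 and 2.33 CPM in Xrn1-AID (edgeR adjusted p = 0.023). LSR1, the U2 snRNA, stood at 41.8, 122 and 30.1 CPM in the Xrn1-WT libraries against 4.93, 4.09 and 3.25 CPM in Xrn1-AID (-3.98 ± 1.09, edgeR adjusted p = 0.0156). The mitochondrial 21S_RRNA stood at 10.2, 130.4 and 26.3 CPM in the Xrn1-WT libraries against 2.34, 1.496 and 1.29 CPM in Xrn1-AID (-5.02 ± 1.24, edgeR adjusted p = 0.00954). In each of these, replicate 2 of Xrn1-WT was by far the highest of the 6 libraries, and the edgeR adjusted p without it was 0.105, 0.0658 and 0.051. The call of SNR17A was also lost by DESeq2 and without AID 1, AID 2 or AID 3, and that of LSR1 without AID 2 or AID 3. SNR190 stood at 12.2, 78.3 and 8.68 CPM in the Xrn1-WT libraries against 0.195, 0.173 and 0.184 CPM in Xrn1-AID, which in Xrn1-AID is about 3 counts a library. OST5, a subunit of oligosaccharyltransferase with a coding length of 261 bases and an intron, stood at 92.4, 128 and 92.0 CPM in the Xrn1-WT libraries against 6.94, 13.5 and 10.7 CPM in Xrn1-AID (-3.32 ± 0.61, edgeR adjusted p = 0.00146). YLR285C-A and YLR342W-A, of 171 and 174 coding bases, fell by 2.96 ± 0.37 and 3.05 ± 0.50. The correction for GC and length ended the call of YLR285C-A (-0.68, edgeR adjusted p = 0.083) and moved YLR342W-A to -1.58. These features were named by the rule that asks for no overlap between the arms, so its absence here is no further result. Of 299 tested reading frames named in the files and without a RefSeq entry, 13 were higher and 64 lower, with a median of -0.61. The count of these that rose was 7 without AID 1, and the count that fell 40 without WT 2 and 42 without AID 1 or AID 2, with a median of -0.34 without WT 2.

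The differences varied with base composition, length and level across protein-coding genes. In the 573 genes lowest in GC, 26% to 36.2%, the median difference was -0.30 and 27.9% were called lower and 3.66% higher; in the 572 highest the median was 0.18 and 3.32% were lower. The 246 genes under 300 coding bases had a median of -0.29 and 19.5% lower, and the 1705 genes of 1500 to 2994 bases had 0.23 and 7.74%, while the 477 of over 3000 bases had 0.06 and 9.43%. By level, the 572 genes of lowest level, up to 5.61 CPM, had a median of 0.30. The 571 genes of 5.66 to 13.8 CPM had 0.42 and the 572 of highest level, from 316 CPM, -0.27. The trend with GC was also present at 0 and 30 min, where the 573 genes of lowest GC had medians of -0.59 and -0.59. The 581 genes of shortest coding length had -0.39 at 0 min and 0.18 at 30 min, and the 572 longest 0.06 and 0.02. By level, the 572 lowest genes had 0.35 at 0 min and 0.33 at 30 min, and the 572 highest -0.13 and 0.14. What part these trends have in the gene calls was not tested; of the 1749 called features, 1632 could be tested after GC and length were fitted, where 1190 were called and 7 had the opposite sign. Of the genes with an intron in the coding region 23 of 269 were higher (8.55%) and 54 lower (20.1%). Outside ribosomal protein genes 22 of 179 were higher (12.3%) and 31 lower (17.3%). The shares over all features were 17.3% higher and 10.9% lower. The count of intron genes that fell was 18 without WT 2, 21 without AID 1 and 32 without AID 3, and outside ribosomal protein genes 15 without AID 1 or WT 2. The count that rose was 14 without AID 1, and outside them 13 without AID 1. After the correction for GC and length 100 of the intron genes were lower, against 1111 of all 5774 features.

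**Figure D4:**
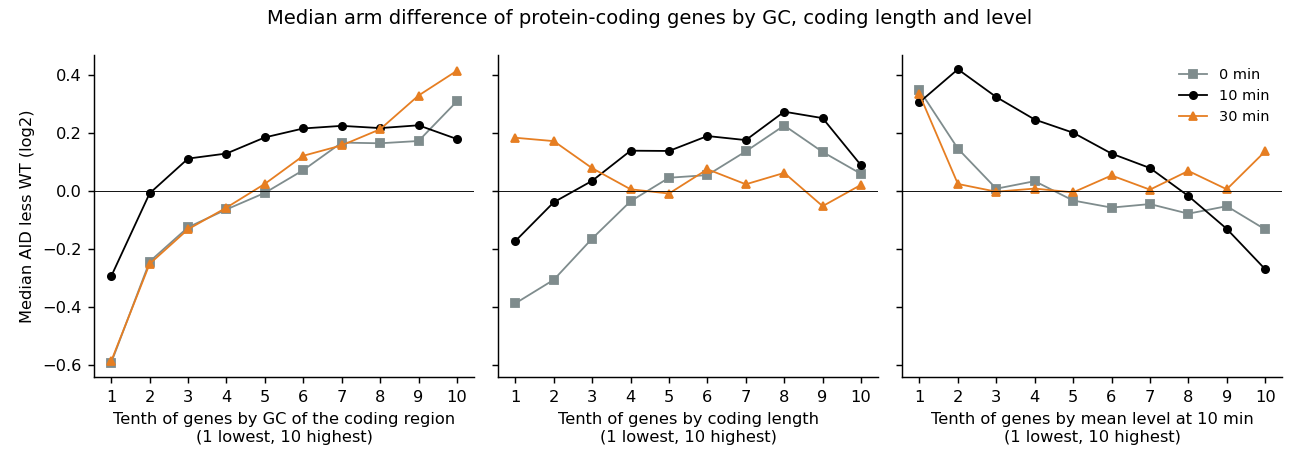
Median difference Xrn1-AID less Xrn1-WT (vertical, log2) of protein-coding genes in 10 bins by GC of the coding region, by coding length and by mean level at 10 min (horizontal, from lowest to highest), at 0, 10 and 30 min. The 10 min line runs from -0.30 in the lowest GC bin to 0.18 in the highest. By level it is at 0.30 in the lowest bin, 0.42 in the next and -0.27 in the highest.

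A test of the difference between times asked which arm differences had changed by or after 10 min. Against 0 min, the arm difference had moved up by 10 min, toward higher levels in Xrn1-AID, in 18 features (0.291% of those tested) and down in 30 (0.484%). Against 30 min it was further up at 10 min in 45 (0.726%) and further down in 40 (0.646%). BTN2 was called in both: its arm difference was -0.08 ± 0.28 at 0 min, -2.26 ± 0.29 at 10 min and 0.23 ± 0.31 at 30 min. ATG41 had 0.54 ± 0.25, -1.47 ± 0.26 and 0.72 ± 0.29, and CIT2 went from -0.56 ± 0.17 to 0.85 ± 0.17 and then -0.85 ± 0.19. PHO11 was lower in Xrn1-AID at 0 and 10 min and higher at 30 min (1.15 ± 0.15), as was MHT1, a homocysteine methyltransferase (-1.26 ± 0.18, against 0.85 ± 0.20 at 30 min). The 10 min libraries enter both comparisons, so the 2 sets of calls are not independent. Against 0 min edgeR made no call in 7 of the 12 fits that left out 1 library, although 854 to 986 features had an unadjusted p under 0.05 in them: without Xrn1-AID replicate 2 or 3 at 0 min, any Xrn1-AID library at 10 min, or Xrn1-WT replicate 1 at either time. Without Xrn1-WT replicate 3 at 0 min the counts were 81 and 56, and without replicate 2 of that group 69 and 60. Against 30 min the counts ran from 2 and 5 without Xrn1-AID replicate 1 at 30 min to 152 and 85 without Xrn1-WT replicate 3 at 10 min. DESeq2 called 131 and 172 features against 0 min and 192 and 285 against 30 min.

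**Figure D5:**
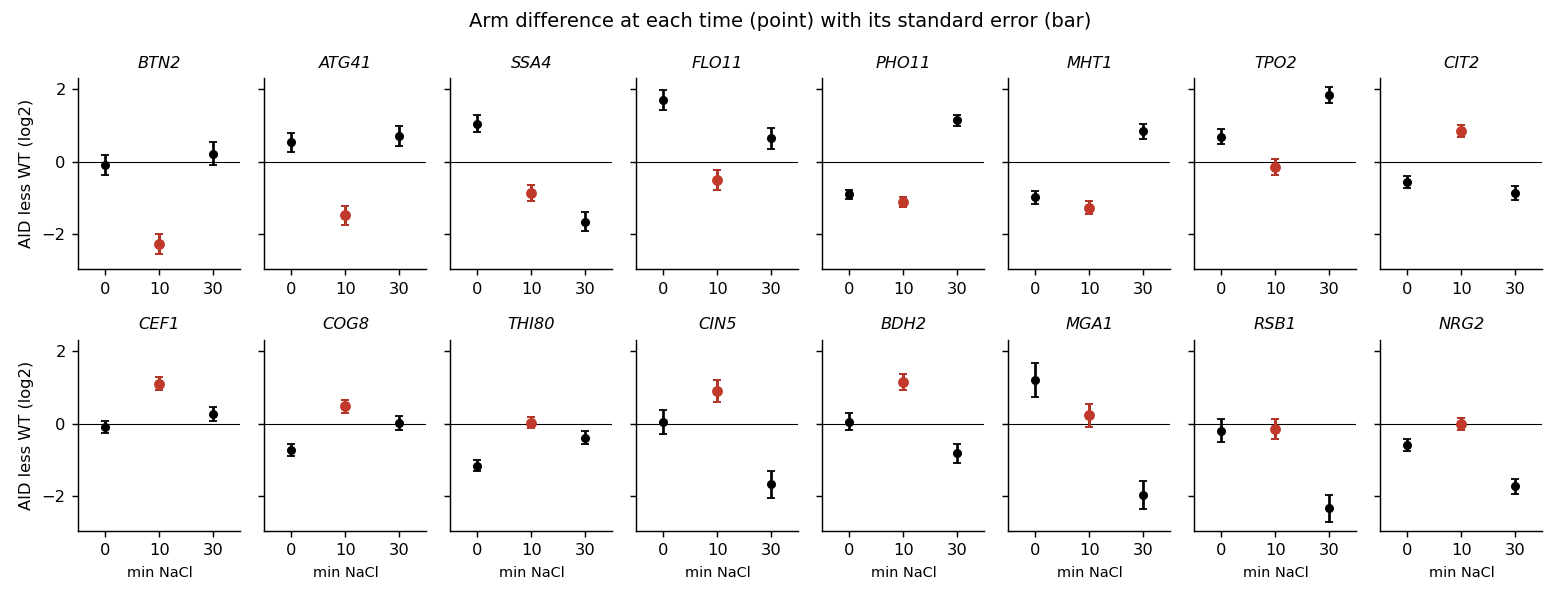
Fitted difference Xrn1-AID less Xrn1-WT (vertical, log2; points, with bars of 1 standard error) at 0, 10 and 30 min of NaCl (horizontal) for 16 genes whose difference changed between 10 min and another time; the 10 min value is in red. BTN2, ATG41 and CIT2 departed at 10 min from both other times, and CIN5, BDH2, MGA1, RSB1 and NRG2 had negative values at 30 min.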

How the data were processed

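Polyadenylated RNA was sequenced as 50-base single reads, per the labels' protocols. The authors deposited raw counts per feature for 17 libraries. The submitters' processing notes list DESeq2 1.22.2, TopHat2 2.1.0, featureCounts 1.5.1 and the build sacCer3, in no order. The settings for strand and for reads with several matches are not given in the sources used here. Of the 7126 features, 6162 (86.47%) were matched to RefSeq by locus tag or symbol; annotated lengths hold no UTRs and are coding lengths.

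Counts were filtered with filterByExpr by group, which kept 6195 features, scaled with TMM and fitted with the robust quasi-likelihood model of edgeR 4.0.16 (R 4.3.3) over the 6 groups; the 30 min Xrn1-AID group holds 2 libraries. Contrasts were Xrn1-AID less Xrn1-WT at each time and the change of that difference between times. P-values were adjusted by Benjamini-Hochberg over all tested features. Alternatives used DESeq2 1.42.0 among others, and the code was tested on simulated data. The GC and length correction fitted splines with 5 degrees of freedom to each library's log counts of 5774 features and passed them to edgeR as offsets. Motifs were searched on both strands of the 300 bases before the coding start.

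Genes were named by this rule: XRN1; the 10 largest called changes in each direction above a mean of 10 CPM and with no overlap; up to 4 called members of each list, or, where none was called, up to 2 with the highest level; the 6 largest changes between times in each direction; and 3 members of each RNA class without a long poly(A) tail. Members outside it (URA3, TRP1, CAN1, PHO5) were chosen after their values were seen. STE3 and MFA2 meet the rule but were picked from their lists with their values seen. Not every gene that meets the rule is named above, for example the falls of 15S_RRNA (-5.29), YBR099C (-3.29) and YMR304C-A (-3.15). Members and lists were chosen with earlier results of these data known. The library totals, 17040739 to 19849677 counts, set the counting precision. A feature at 3 counts or fewer is given by its values alone.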

Additional observations from a re-analysis of the deposited data

Results flagged for a closer look

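These genes are listed because the test of the difference itself found that their arm difference, Xrn1-AID less Xrn1-WT, changed between times. All values are changes of that log2 difference (edgeR, Benjamini-Hochberg adjusted p under 0.05 over all features); those against 0 min and those against 30 min share the 10 min libraries.

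Against 0 min, the arm difference rose by 1.42 in CIT2, 1.21 in COG8, of the Golgi tethering complex, 1.19 in THI80, of thiamine metabolism, 1.19 in CEF1, a splicing factor, 1.15 in FAR10, of pheromone arrest, and 1.14 in ULP1, a SUMO protease. It changed by -2.22 in FLO11, the flocculin, -2.18 in BTN2, -2.01 in ATG41, -1.91 in SSA4, -1.50 in ALG3, a mannosyltransferase, and -1.46 in MIR1, the mitochondrial phosphate carrier. THI80 and ALG3 differed by 0.02 ± 0.16 and 0.03 ± 0.21 at 10 min, against -1.17 ± 0.15 and 1.53 ± 0.21 at 0 min.

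Against 30 min, the arm difference was further up at 10 min by 2.57 in CIN5, 2.20 in MGA1, 2.19 in RSB1, a sphingoid base transporter, 2.01 in PIG2, a putative phosphatase subunit of glycogen metabolism, 1.96 in BDH2 and 1.71 in NRG2, a repressor. It differed by -2.49 in BTN2, -2.26 in PHO11, -2.18 in ATG41, -2.17 in PHO12, -2.11 in MHT1 and -1.98 in TPO2, a polyamine transporter. PHO11 and PHO12 are near-identical, so their counts are not independent. None of the 12 genes named against 0 min kept its call in every alternative, and 3 of the 12 named against 30 min did.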

How the results depend on the processing

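Counts are given as higher and lower. For Xrn1-AID against Xrn1-WT at 10 min (1072 and 677), they were 846 and 861 with DESeq2's size factors, 835 and 314 by library size alone, 972 and 1055 with DESeq2, 114 and 107 against a 1.5-fold threshold, 730 and 758 with the 6 libraries alone, 858 and 1111 after the GC and length correction, and 650 to 1032 and 381 to 631 when 1 library was left out; none of the 1749 calls changed sign except 7 after the GC and length correction, with or without the block. For 10 less 0 min (18 and 30), they were 0 and 0 by library size alone and against a 1.5-fold threshold, 131 and 172 with DESeq2, 2 and 17 with only the groups compared, 20 and 19 with GC and length, and 0 to 81 and 0 to 60 when 1 library was left out. For 10 less 30 min (45 and 40), they were 20 and 39 by library size alone, 192 and 285 with DESeq2, 2 and 6 against 1.5-fold, 15 and 28 with only the groups compared, 147 and 259 with GC and length, and 2 to 152 and 5 to 85 when 1 library was left out. Same-numbered libraries of the arms did not deviate together at 10 min (correlations -0.121, -0.221 and 0.0345), so the numbers were not taken to pair them. With the replicate block the counts were 888 and 579 at 10 min, 0 and 0 for 10 less 0 min and 4 and 8 for 10 less 30 min; with the block and only the groups compared 599 and 636, 0 and 0, and 1 and 7; with the block and the GC and length correction 760 and 1006, 6 and 5, and 61 and 118. Where edgeR made 0 calls with all libraries, 253 to 946 features had an unadjusted p under 0.05. The causes of these changes were not tested. Of 194 genes followed at 10 min 174 were called, 49 of them in every alternative, and 59 lost their call without Xrn1-WT replicate 2. Of the list medians, 855 recomputed values moved by less than the spread between replicates and 212 by more. Features near 3 counts a library are limited by depth.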
